A study of Mus musculus with 12 samples.

Results

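Fatty acid desaturases and elongases were followed through 9 genes, Scd1, Scd2, Fads1, Fads2, Fads3, Elovl1, Elovl3, Elovl5 and Elovl6, and every array probe annotated to one of them was included, 15 of 46643 probes, for 9 of the 19406 genes with a symbol. RNA came from mouse embryos at embryonic day 16.5. In S1Pcko embryos (S1P f/f;Col2-Cre) the gene of site-1 protease (S1P) is deleted by a Cre recombinase under the Col2 promoter, which is active in chondrocytes, and the WT embryos were littermates that carried S1P f/+;Col2-Cre, S1P f/+ alone or S1P f/f without Cre. The floxed allele was thus present in the WT embryos too, and so, in some of them, was Cre. For each genotype there were 2 cartilage arrays (chondroepiphyseal), 3 arrays of whole long bones with their cartilage ends left on, and 1 array of calvaria, the bony roof of the skull. The 2 cartilage arrays of a genotype were a first and a second amplification, apparently of RNA from 1 embryo. So n counts arrays, and the spread between embryos is missing from every p-value and interval in cartilage. Of the 3 long bone arrays of a genotype, 1 was also a second amplification, so they appear to hold fewer than 3 extracts. All tissues were bulk samples, in which fewer cells of a type and less RNA per cell cannot be told apart.

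Desaturases are enzymes of the endoplasmic reticulum that place a double bond in a fatty acyl chain, and elongases carry out the first step of the cycle that lengthens such a chain. The Scd enzymes make monounsaturated fatty acids from saturated ones, Fads1 and Fads2 work in turn on the polyunsaturated series, and the Elovl enzymes differ in the length and saturation of the chains they accept. S1P cuts the precursors of the sterol regulatory element binding proteins (SREBPs) in the Golgi, which frees transcription factors known to act on genes of cholesterol, fatty acid and unsaturated fatty acid synthesis. In cartilage, these lipids serve as membrane for a cell that secretes matrix.

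The stretches before the transcription start are shown for 3 members, taken from RefSeq (GRCm38.p6), where 5 of the 9 members had an entry. Shown are Fads2, a desaturase that fell in cartilage, Fads3, its neighbour on the chromosome, which passed no threshold, and Elovl6, the elongase that differed between the WT tissues. Each runs over the 250 bases before the start, 5′ to 3′, with capitals for the letters CCAAT and GGGCGG on either strand. These are the motifs named CCAAT box and GC box, which are bound by factors that often work beside SREBPs. Fads2 lies at chr19:10101504-10101753 on the minus strand, Fads3 at chr19:10041298-10041547 on the plus strand and Elovl6 at chr3:129532136-129532385 on the plus strand.
Fads2: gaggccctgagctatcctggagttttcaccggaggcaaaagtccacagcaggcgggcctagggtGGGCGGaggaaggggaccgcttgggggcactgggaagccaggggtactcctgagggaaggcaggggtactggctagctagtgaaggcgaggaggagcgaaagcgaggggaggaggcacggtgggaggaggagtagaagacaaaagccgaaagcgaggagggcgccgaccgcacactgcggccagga
Fads3: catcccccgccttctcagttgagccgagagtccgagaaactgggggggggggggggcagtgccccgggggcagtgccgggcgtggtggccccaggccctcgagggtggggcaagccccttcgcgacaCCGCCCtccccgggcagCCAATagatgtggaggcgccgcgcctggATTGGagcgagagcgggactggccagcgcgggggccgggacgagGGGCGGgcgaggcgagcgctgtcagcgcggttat
Elovl6: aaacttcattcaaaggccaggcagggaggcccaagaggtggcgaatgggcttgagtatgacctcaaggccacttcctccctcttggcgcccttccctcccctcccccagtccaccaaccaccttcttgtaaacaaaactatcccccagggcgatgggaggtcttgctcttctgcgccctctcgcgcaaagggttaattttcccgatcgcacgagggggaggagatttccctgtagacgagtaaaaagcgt
The Fads2 stretch holds 1 match to GGGCGG and 0 to CCAAT, that of Fads3 holds 2 of each, and that of Elovl6 holds 0 of both. Among 32851 promoter windows of the same length, 32.7% hold GGGCGG and 33.8% hold CCAAT. The letters TCACNCCAC, 1 form of the sterol regulatory element, are in 1.05% of all windows and in none of those of the 5 members with an entry. No motif overlaps another in the 3 printed stretches. A match only describes the letters, and their absence says only that they are not in this window. In the same annotation Fads3, Fads2 and Fads1 follow each other on chromosome 19 with 0 protein-coding genes between them, and Scd3, Scd2, Scd4 and Scd1 form another such row on that chromosome.

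After background correction and quantile normalization of the 12 arrays together, levels are given as normalized log2 intensity, where 1 unit is a factor of 2. A probe counted as detected on an array at a detection p under 0.05, and testing was limited to 23744 probes that were detected on 2 or more of the 10 arrays from cartilage and long bone. Of the 15 member probes, 12 passed this filter and were detected on all 12 arrays, and they cover 8 of the 9 genes. The single probe of Elovl3, an elongase known from brown fat and sebaceous glands, was detected on 0 arrays. The same held for a second probe of Fads3, and a second probe of Elovl6 was detected on 1 array, array 1919 of WT cartilage, at 5.89. These 3 probes were not tested. The words rose and fell are kept for changes of at least 2-fold whose adjusted p was below 0.05 (limma, Benjamini-Hochberg over all 23744 probes). Arrays are named by the number in their titles.

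The arrays themselves were alike, with 20555 to 21978 probes detected on each. Chondrocyte markers were highest in WT cartilage (mean log2 level of 11 markers 11.14 to 11.20 in S1Pcko and 11.61 to 11.62 in WT cartilage), lower in most long bones (10.61 to 11.06 in S1Pcko and 10.46 to 11.32 in WT arrays) and lowest in calvaria (9.38 in S1Pcko and 9.51 in WT), where 9 of the 11 were nevertheless detected. Mbtps1, which encodes S1P, differed by -0.22 (standard error 0.23, adjusted p = 0.653) in cartilage and by -0.18 (standard error 0.19, adjusted p = 0.727) in long bone at its brightest probe, and since the position of this probe relative to the deleted exon is not given in the sources used here, the value checks no label. Skeletal muscle markers stood apart on array 1922 of S1Pcko long bone (mean log2 level 12.20, against 10.41 and 10.41 on the other S1Pcko long bone arrays and 11.80 to 11.93 in WT long bone), so long bone values are also given without it where they matter. The S1Pcko arrays left then, 1924 and 1930, had r = 0.992 over the tested probes, against 0.980 for each with array 1922. Array 1930 is a second amplification, so values without array 1922 may rest on the same S1Pcko extract throughout.

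In S1Pcko cartilage 3 of the 8 tested genes fell, Scd1, Scd2 and Fads2, and none rose. They are desaturases, whereas no elongase passed both thresholds. Counted by probe, 4 of 12 fell, beside 1.34% of all tested probes, and 0 rose, beside 1.07%. The authors had themselves put Scd1, Scd2 and Fads2 on their list of changed genes from these same arrays, so these counts are no independent evidence. With the lower threshold of an adjusted p under 0.05 alone, Fads1 joined them, which made 5 of 12 probes beside 2.50% of all.

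Scd1 (probe 2680441), which makes oleate and palmitoleate and is the stearoyl-CoA desaturase best known from liver and fat, fell most. In S1Pcko cartilage its level was 8.73 and 8.28 on the 2 arrays, against 11.29 and 11.04 in WT cartilage. The groups lay more than 2 units apart. The difference was -2.66 (standard error 0.24, adjusted p = 0.000125), a level 6.31-fold lower. In S1Pcko long bone Scd1 stood at 9.33, 8.92 and 8.99, against 10.79, 10.36 and 10.12 in WT long bone. All 3 S1Pcko arrays were below all 3 WT arrays. The change was -1.34 (standard error 0.20, adjusted p = 0.00488), or 2.54-fold lower, and it was -1.47 (adjusted p = 0.00231) without array 1922. In calvaria, the S1Pcko array had 9.17 and the WT array 9.13.

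Scd2 (probe 5690309), the stearoyl-CoA desaturase known as the main form of brain and of the embryo, was bright throughout. Its level was 13.67 and 13.32 in S1Pcko cartilage, against 14.77 and 14.52 in WT cartilage. This is a change of -1.15 (standard error 0.17, adjusted p = 0.00368), or 2.22-fold lower. The call was close to both thresholds, since without array 1919 of WT cartilage the adjusted p was 0.0507, and without array 1928 of S1Pcko cartilage the change was -0.97. In S1Pcko long bone Scd2 had 13.72, 13.49 and 13.64, against 14.43, 14.44 and 14.45 in WT long bone. The WT arrays were nearly level with each other, and the groups did not overlap. The change of -0.82 (standard error 0.14, adjusted p = 0.0116) passed on p and stayed under 2-fold. The calvaria arrays had 14.12 in S1Pcko and 14.10 in WT.

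**Figure D1:**
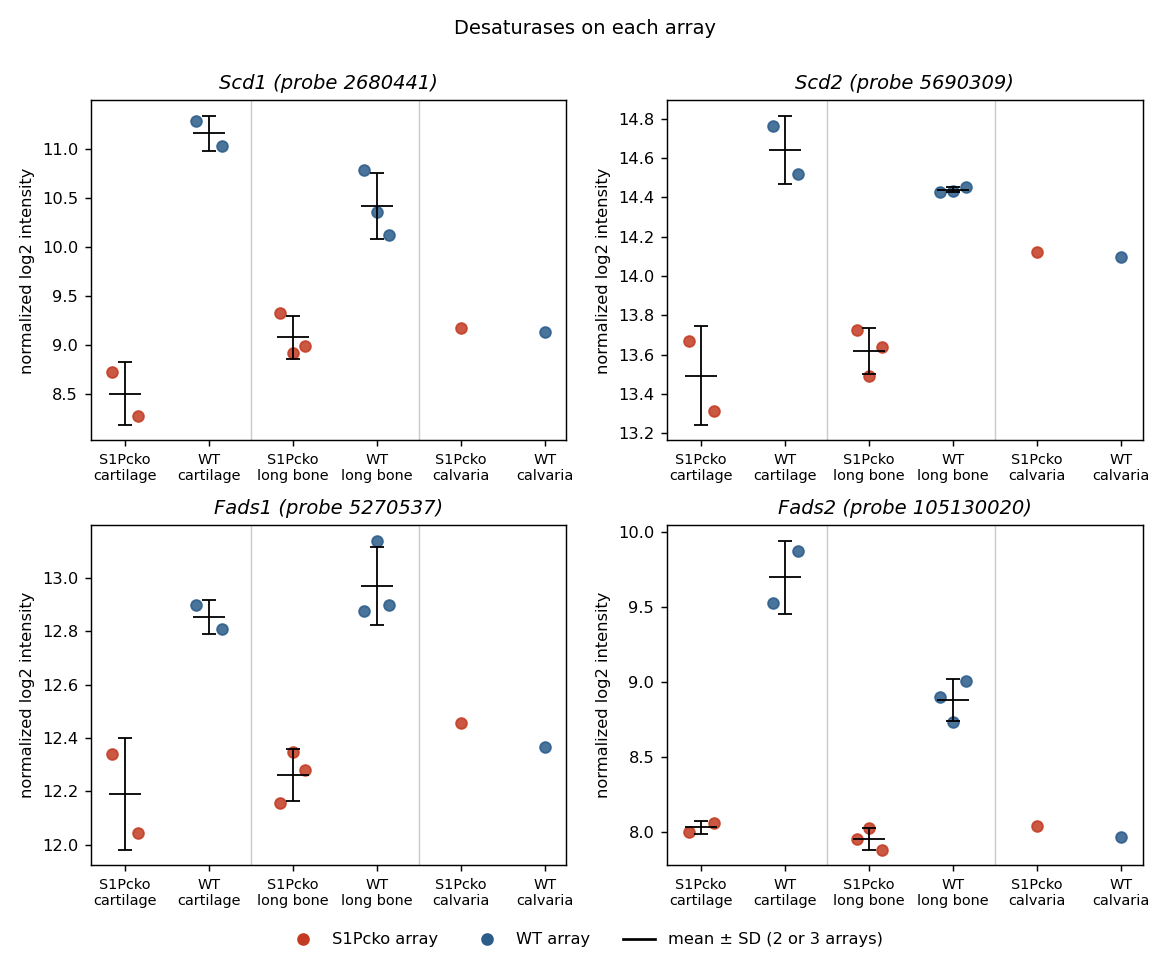
Normalized log2 intensity (vertical axis, a separate range per panel) of Scd1, Scd2, Fads1 and Fads2 on each of the 12 arrays, by tissue with S1Pcko (red) left of WT (blue), with black lines for the mean ± SD where a group has 2 or 3 arrays. In cartilage and long bone all S1Pcko points of the 4 genes lie below all WT points, as for Scd1 at 8.73 and 8.28 against 11.29 and 11.04 in cartilage, and in calvaria the single points of both genotypes lie close together.

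Fads2, the delta-6 desaturase that opens the polyunsaturated pathway, fell in cartilage at both of its probes. At the brighter one (105130020) it had 8.0 and 8.06 in S1Pcko cartilage, against 9.53 and 9.87 in WT cartilage. That is a change of -1.67 (standard error 0.17, adjusted p = 0.000274), or 3.18-fold lower. At the dimmer probe (630253) S1Pcko cartilage had 6.97 and 7.14, against 8.49 and 8.89 in WT cartilage, a change of -1.63 (standard error 0.19, adjusted p = 0.000707). The probes gave nearly the same profile (r = 0.95 over the 12 arrays, a description only). In long bone the brighter probe had 7.95, 8.03 and 7.88 in S1Pcko arrays, against 8.90, 8.73 and 9.01 in WT arrays. Both groups were tight and did not overlap. Its change of -0.92 (standard error 0.14, adjusted p = 0.00505) was 1.90-fold, while the dimmer probe passed both thresholds at -1.07 (standard error 0.15, adjusted p = 0.00363), or 2.11-fold lower. Fads2 therefore counted as fallen in long bone at 1 of its 2 probes, and the gene value, taken from the brighter probe, was not called.

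Fads1, the delta-5 desaturase that acts after Fads2, was lower by less than 2-fold. Its brighter probe (5270537) had 12.34 and 12.04 in S1Pcko cartilage, against 12.90 and 12.81 in WT cartilage. The change of -0.66 (standard error 0.17, adjusted p = 0.0482) passed on p alone, and without 1 array at a time its adjusted p ran from 0.0455 to 0.292. In long bone it had 12.16, 12.35 and 12.28 in S1Pcko arrays, against 12.88, 13.14 and 12.90 in WT arrays. The groups did not overlap, and the change was -0.71 (standard error 0.14, adjusted p = 0.0231). The dimmer Fads1 probe (101990040) differed by -0.37 (adjusted p = 0.188) in cartilage and by -0.58 (adjusted p = 0.0316) in long bone.

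Fads3 (probe 106770014), the third gene of the row and an enzyme that acts on sphingoid bases, had the opposite sign in both tissues. In S1Pcko cartilage it stood at 9.67 and 9.54, against 9.03 and 8.99 in WT cartilage. The S1Pcko arrays were the higher ones, at a change of 0.59 (standard error 0.17, adjusted p = 0.0723), which did not pass. Groups that do not overlap are common with 2 arrays against 2, and 27.6% of all probes had S1Pcko above WT in this way. In long bone the genotypes overlapped, with 9.996, 9.69 and 9.79 in S1Pcko arrays against 9.53, 9.69 and 9.37 in WT arrays and a change of 0.30 (standard error 0.14, adjusted p = 0.35).

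Among the elongases, Elovl6 (probe 5340746), which extends palmitate to stearate and so supplies a substrate of the Scd enzymes, came closest to the thresholds. It had 10.25 and 10.50 in S1Pcko cartilage, against 11.01 and 11.27 in WT cartilage. The groups did not overlap, and the change of -0.77 (standard error 0.22, adjusted p = 0.0777) passed neither threshold. In long bone it had 9.38, 10.04 and 9.82 in S1Pcko arrays, against 9.94, 10.08 and 10.30 in WT arrays. These values overlapped, with a change of -0.36 (standard error 0.18, adjusted p = 0.394), and without array 1922, the lowest, it was -0.18 (adjusted p = 0.667).

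Elovl5 (probe 3800170), the elongase of polyunsaturated chains that works between Fads2 and Fads1, showed no change that these arrays could detect. It had 11.55 and 11.82 in S1Pcko cartilage, against 11.58 and 11.86 in WT cartilage, and the 95% interval of its change ran from -0.49 to 0.42. In long bone S1Pcko arrays had 11.77, 11.98 and 11.75, against 11.53, 11.85 and 12.12 in WT arrays, with an interval of -0.37 to 0.37. A change of 2-fold lies outside both intervals. They measure the spread between arrays, part of it technical, and in cartilage apparently none between embryos. Elovl1, which makes the very long saturated chains found in sphingolipids, was likewise near 0 at its 3 probes. Its brightest probe (5340685) had 8.93 and 9.22 in S1Pcko cartilage, against 8.83 and 9.03 in WT cartilage, an interval of -0.39 to 0.68. In long bone it had 8.92, 9.40 and 9.14 in S1Pcko arrays, against 8.78, 8.80 and 9.43 in WT arrays, an interval of -0.29 to 0.59. The 3 Elovl1 probes did not share 1 profile, since 5340685 had r = 0.15 and r = 0.16 over the 12 arrays with 2450019 and 4760138, which had r = 0.94 between them.

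**Figure D2:**
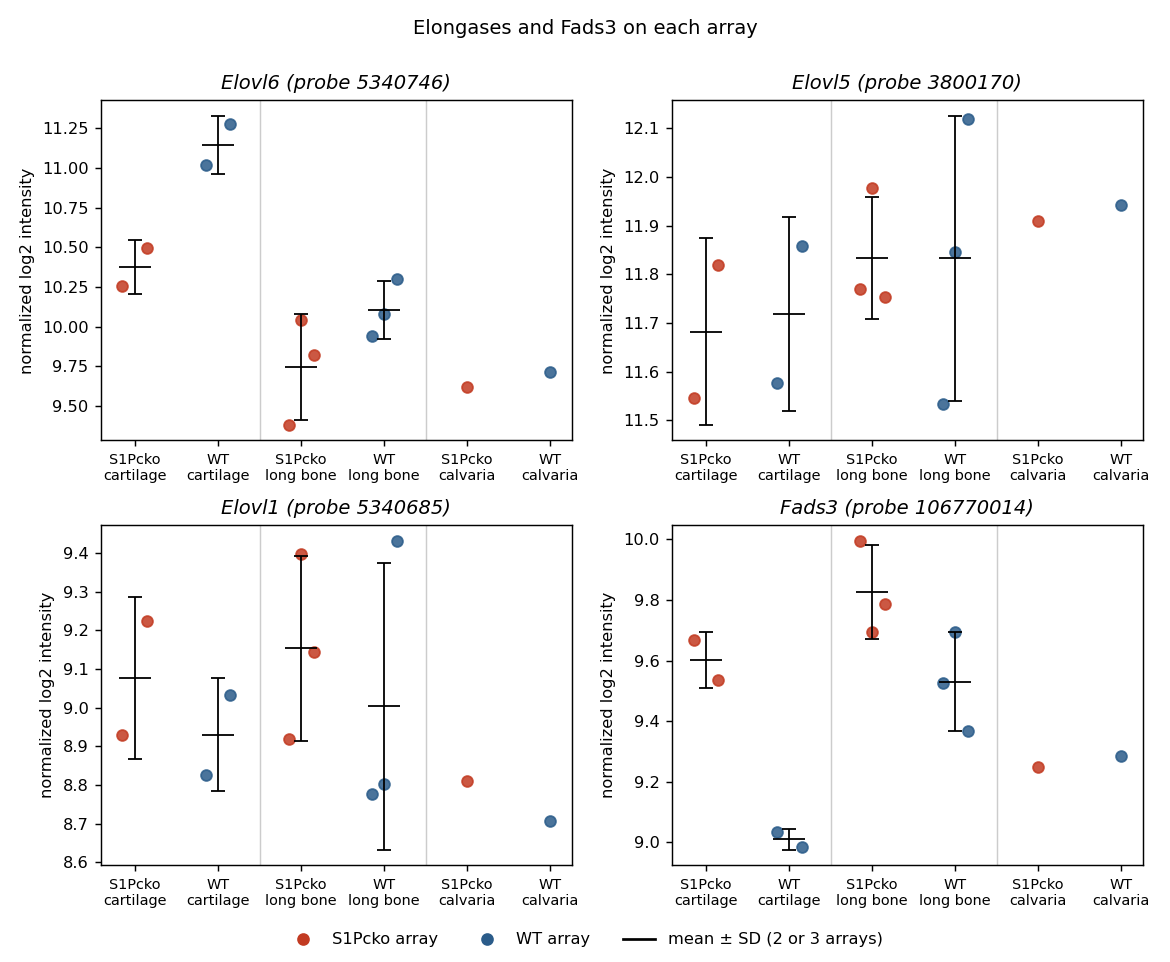
Normalized log2 intensity (vertical axis, a separate range per panel) of Elovl6, Elovl5, the brightest Elovl1 probe and Fads3 on each of the 12 arrays, by tissue with S1Pcko (red) left of WT (blue), with the mean ± SD in black where a group has 2 or 3 arrays. Elovl6 is highest in WT cartilage at 11.01 and 11.27, the Elovl5 and Elovl1 points of both genotypes overlap in cartilage and long bone, and Fads3 is higher in S1Pcko than in WT cartilage.

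In S1Pcko long bone as a whole, 1 of the 8 tested genes fell, Scd1. By probe it was 2 of 12, beside 0.413% of all tested probes, and 6 of 12 passed on adjusted p alone, beside 0.813%. None rose, beside 0.615%. The medians over the 8 genes were -0.72 in cartilage and -0.54 in long bone, against 0.01 and -0.01 over all 12542 genes with a symbol. Separate S1Pcko and WT groups, with S1Pcko lower, were seen for 7 of 12 probes in cartilage and 6 of 12 in long bone, beside 25.0% and 8.55% of all probes. Within the first and second amplification taken apart, Scd1 differed by -2.56 and -2.76 in cartilage and by -1.45 and -1.13 in long bone, and the brighter Fads2 probe by -1.53 and -1.81 in cartilage and by -0.82 and -1.13 in long bone. When only the first amplifications were fitted, or both amplifications of an extract were averaged, these sizes stayed similar while 0 of 12 probes passed (limma), with 4 and 5 at an unadjusted p under 0.05 in cartilage and 6 and 6 in long bone. The adjusted p of Scd1 in cartilage was then 0.136 and 0.144, that of the brighter Fads2 probe 0.22 and 0.145, and that of Scd2 0.379 and 0.363. For Scd1 in long bone it was 0.234 and 0.29, and for the dimmer Fads2 probe 0.311 and 0.28. In both of these fits cartilage had a single value per genotype, which was assumed to vary like the long bone samples, so their p-values in cartilage contain no spread measured in that tissue.

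**Figure D3:**
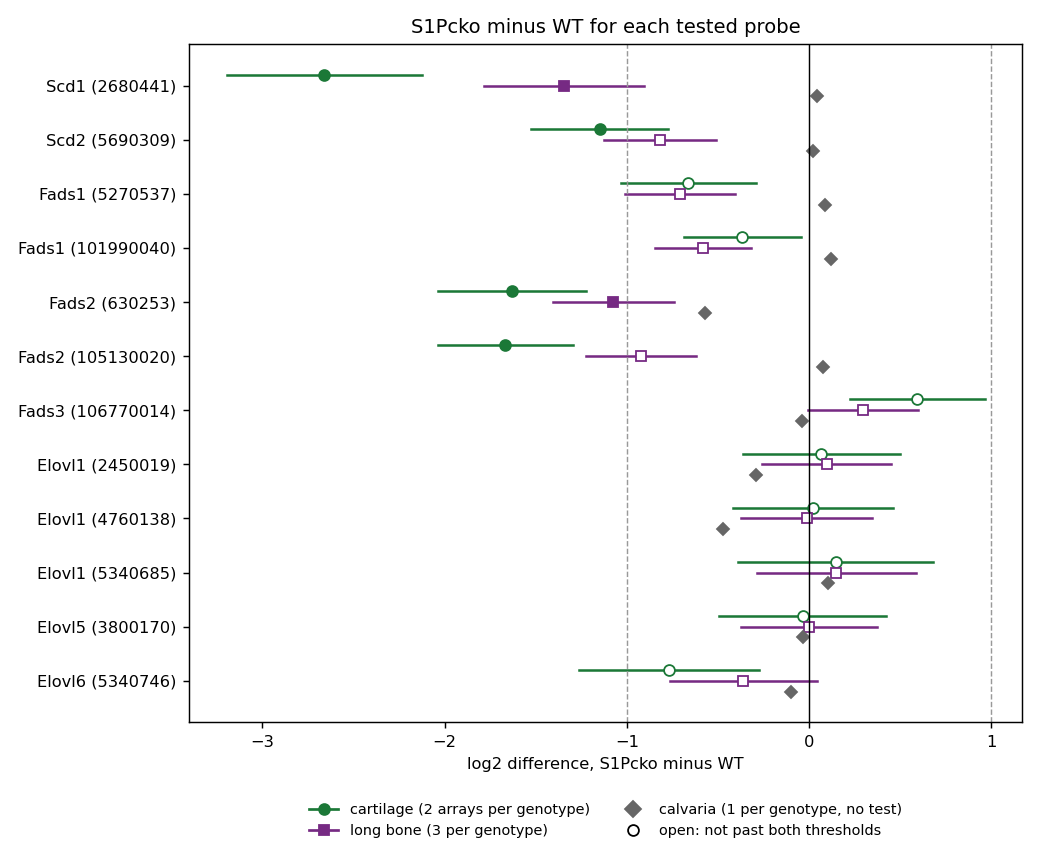
Log2 difference of S1Pcko minus WT (horizontal axis) for each of the 12 tested probes, named by gene and probe number, in cartilage (green circles, 2 arrays per genotype) and long bone (purple squares, 3 per genotype) with 95% intervals as bars, and in calvaria (grey diamonds, 1 per genotype, no interval); filled symbols passed both thresholds and dashed lines mark 2-fold. Scd1 lies farthest left at -2.66 in cartilage and -1.34 in long bone, the calvaria diamond of every Scd and Fads1 probe lies between 0.02 and 0.12, and Elovl5 and Elovl1 straddle 0.

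Whether the genotype change differed between cartilage and long bone was tested directly. For Scd1 the cartilage change minus the long bone change was -1.31 (standard error 0.31, adjusted p = 0.11), above the threshold. Without array 1921 of WT long bone, which had the highest Scd1 level of its group, the same difference was -1.50 with an adjusted p of 0.0303. The brighter Fads2 probe gave -0.74 (adjusted p = 0.171) and Elovl6 -0.41 (adjusted p = 0.545). None of the 12 probes passed, beside 0.198% of all probes in this direction and 0.143% in the other, and 3 of them had an unadjusted p under 0.05.

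In calvaria none of the 12 probes differed by 2-fold between the S1Pcko and the WT array, beside 0.295% of all probes lower and 0.880% higher. Most differences lay between -0.29 and 0.12, and the exceptions were the dimmer Fads2 probe at -0.57 (7.12 in S1Pcko, 7.69 in WT) and 1 Elovl1 probe at -0.47 (7.79 in S1Pcko, 8.26 in WT). The brighter Fads2 probe had 8.04 in S1Pcko and 7.96 in WT, so the Fads2 probes had opposite signs. With 1 array per genotype these differences have no replicate check.

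The WT tissues also differed from each other. Elovl6 was the member with the largest difference, with 11.01 and 11.27 in WT cartilage, against 9.94, 10.08 and 10.30 in WT long bone. Elovl6 was thus higher in cartilage by 1.04 (standard error 0.20, adjusted p = 0.00988), 2.05-fold, and it was the only 1 of 12 probes to pass both thresholds upward, beside 1.63% of all probes, with 0 downward, beside 2.37%. This call was lost without array 1921 (change 0.95), without array 1927 (adjusted p = 0.11), and with the first amplifications alone (adjusted p = 0.283). Fads2 was higher in WT cartilage than in WT long bone at both probes, at 0.82 (adjusted p = 0.00771) and 0.65 (adjusted p = 0.0348), without reaching 2-fold, which made 3 of 12 probes past the adjusted p alone, beside 4.49% of all. Scd1 averaged 11.16 ± 0.18 in WT cartilage and 10.42 ± 0.34 in WT long bone (SD, n = 2 and 3 arrays), a difference of 0.74 (adjusted p = 0.0594). Fads3 went the other way, at -0.52 (adjusted p = 0.0564), and Scd2, Fads1, Elovl1 at its brightest probe and Elovl5 differed by 0.20, -0.12, -0.07 and -0.11 (adjusted p = 0.455 to 0.88). The WT cartilage arrays lay above all WT long bone arrays for 6 of 12 probes and below them for 2, beside 21.0% and 19.6% of all probes.

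Over the 3 WT tissues, 4 of the 8 genes had the order cartilage, long bone, calvaria from high to low, namely Scd1, Scd2, Fads2 and Elovl6. For Scd1 the WT calvaria array, at 9.13, was 2.03 units below the mean of WT cartilage and 1.29 below that of WT long bone. For Elovl6 it stood at 9.72, 1.43 and 0.39 units below them. For Scd2 it stood 0.54 and 0.34 units below them, and cartilage and long bone, though their arrays did not overlap, did not differ past the threshold (adjusted p = 0.455). No spread is known for calvaria, so its place in each order rests on 1 array. The brighter Fads1 probe and the brightest Elovl1 probe had long bone first and calvaria last. Other probes of these genes had other orders. Elovl1 probes 2450019 and 4760138 had calvaria first and cartilage last, with WT cartilage minus WT calvaria at -0.80 and -0.84. Fads1 probe 101990040 had cartilage first and calvaria last. Elovl5 had calvaria first at 11.94, with steps of about 0.11, and Fads3 had long bone first, calvaria second and cartilage last. As to which enzyme dominates, the brightest desaturase probe was that of Scd2 and the brightest elongase probe that of Elovl5 in WT cartilage (14.64 and 11.72), WT long bone (14.44 and 11.83) and WT calvaria (14.10 and 11.94). Probes differ in how well they bind and label, and close paralogs such as the Scd genes could share signal, which was not tested, so this ranks signals and not transcripts.

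Over all 6 groups, Scd1 and Scd2 had the same order, with WT cartilage first, then WT long bone, S1Pcko calvaria, WT calvaria, S1Pcko long bone and S1Pcko cartilage last. For both genes the calvaria arrays of the 2 genotypes were nearly level, and the S1Pcko means of cartilage and long bone lay below them. The arrays of S1Pcko long bone and S1Pcko cartilage overlapped for Scd2 and not for Scd1. The 6 means spanned 2.66 units for Scd1, 1.74 for the brighter Fads2 probe, 1.53 for Elovl6 and 0.26 for Elovl5. Across the 12 arrays Scd1 had r = 0.93 with Scd2, 0.92 with Fads2 and 0.87 with Fads1, against 0.53 with Elovl6 and -0.21 with Elovl5. Because the arrays share genotype, tissue and RNA extracts, these values only describe likeness of profile.

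Genes with the profile most like 3 members were taken as the highest Pearson correlations over the 12 arrays among the 12542 genes. For Scd1 they were Cyp51, the lanosterol demethylase of cholesterol synthesis (r = 0.98), Tmem97 (0.97), Map3k21 (0.96), Stard4, a sterol carrier (0.96), and Tlcd1 (0.96). For Fads2 they were Tspan6 (0.99), Msmo1, the sterol-C4 oxidase (0.98), Fam98a (0.98), Ikbip (0.97) and Lss, lanosterol synthase (0.95). For Elovl6 they were Plod1, a collagen lysyl hydroxylase (0.96), Mfap3 (0.96), Pmvk, a kinase of the mevalonate pathway (0.96), Acsf2 (0.95) and Nlgn3 (0.95). Without the calvaria arrays, these 15 values ran from 0.95 to 0.99. The genes were picked on all 12 arrays, most of which remain, so this is no separate check.

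The enzymes around the members were described by lists, each gene at its brightest tested probe. The other desaturases and elongases had 4 of 9 genes measured, Scd4, Degs1, Fa2h and Elovl4, with 0 called in either tissue, 0 at an unadjusted p under 0.05 and changes between -0.27 and 0.03 in cartilage. The partner enzymes that complete the elongation cycle after the Elovl step, among them Hsd17b12 and Tecr, had 6 of 6 measured and 0 called, with 2 at an unadjusted p under 0.05 in cartilage and 0 in long bone. Fatty acyl-CoA synthetases had 5 of 9 measured and 0 called, with 1 at an unadjusted p under 0.05 in each tissue. At the single-gene level the background was 1.53% of genes lower and 1.17% higher in cartilage, and 0.486% lower and 0.773% higher in long bone.

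Electrons reach the desaturases from NADH through cytochrome b5 reductase and cytochrome b5. Of 6 such carriers, 2 rose in both tissues, beside 1.17% of all genes in cartilage and 0.773% in long bone. The authors' list from these same arrays already holds 1 of them, Cyb5r2. Cyb5r2, a cytochrome b5 reductase, averaged 7.62 in S1Pcko cartilage and was not well above background in WT cartilage (4.90), at least 5.93-fold higher (adjusted p = 1.34e-05). In long bone it averaged 7.33 in S1Pcko arrays and was again not well above background in WT arrays (4.68), at least 4.82-fold higher (adjusted p = 2.56e-06). Such a fold is a lower bound, set from the lowest level of a detected probe on the WT arrays. Cyb5r1, another reductase of the family, rose by 1.41 (8.72 in S1Pcko and 7.31 in WT, adjusted p = 0.00506) in cartilage and by 1.63 (8.90 in S1Pcko and 7.27 in WT, adjusted p = 0.000793) in long bone. Cyb5r3, the reductase most often tied to desaturation, differed by -0.17 (adjusted p = 0.836) and -0.08 (adjusted p = 0.941), and the cytochrome Cyb5a by -0.29 and 0.36, neither of which passed. Of the 6 carriers, 0 were called in cartilage and 1 in long bone with first amplifications alone, 1 and 1 with averaged amplifications, and 1 in cartilage without array 1927.

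The supply of palmitate, the substrate that Elovl6 and the Scd enzymes share, had 8 of 8 genes measured and 0 called in cartilage or long bone. The medians were -0.72 and -0.29, with 4 and 3 genes at an unadjusted p under 0.05. This list also includes the member Elovl6, which uses palmitate, at -0.77 in cartilage and -0.36 in long bone, so Elovl6 enters both medians. Fasn, fatty acid synthase, had 9.95 in S1Pcko and 10.86 in WT cartilage, a difference of -0.90 (adjusted p = 0.115), and Acly, ATP citrate lyase, 12.09 and 12.81, a difference of -0.73 (adjusted p = 0.0539). Slc25a1, the mitochondrial citrate carrier, passed on p alone at -0.94 (adjusted p = 0.0118). Acaca, acetyl-CoA carboxylase, differed by 0.01.

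Cholesterol synthesis, a branch that SREBPs are known to control together with the desaturases, had 15 of 20 genes measured, and 10 fell in cartilage (median -1.12). Msmo1 had 10.07 in S1Pcko and 11.995 in WT cartilage, a change of -1.92 (adjusted p = 5.00e-05), and Fdps, farnesyl diphosphate synthase, had 10.87 and 12.30, a change of -1.42 (adjusted p = 0.00139). In long bone all 15 had negative signs at a median of -0.70, and 0 reached both thresholds, although 7 passed the adjusted p and 13 an unadjusted p under 0.05. With first amplifications alone or averaged ones, 0 of 15 were called in cartilage too. Of the 10 measured regulators, Insig1, which holds the SREBP escort Scap in the endoplasmic reticulum, fell in cartilage (6.10 in S1Pcko, 8.17 in WT, change -2.07, adjusted p = 6.56e-05), and Srebf2, which encodes SREBP-2, fell in long bone (7.68 in S1Pcko, 8.88 in WT, change -1.20, adjusted p = 0.00211). With first amplifications alone or averaged ones, 0 of the 10 regulators were called in either tissue. Several of these genes are on the authors' list from the same arrays as well.

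**Figure D4:**
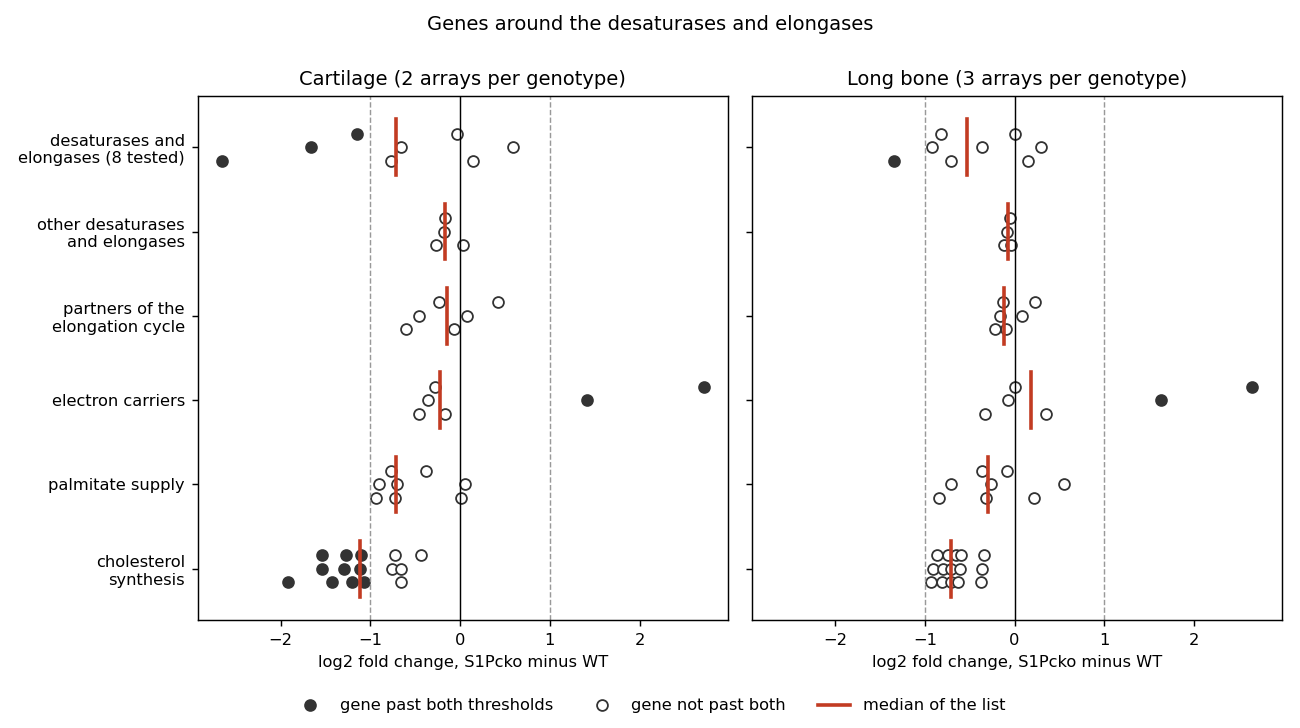
Log2 fold change of S1Pcko minus WT (horizontal axis) for each measured gene of 6 lists (rows) in cartilage (left) and long bone (right); filled points passed an adjusted p under 0.05 and 2-fold, red bars are list medians and dashed lines mark 2-fold. Cholesterol synthesis lies left of 0 throughout with 10 filled points in cartilage and 0 in long bone, while 2 electron carriers, Cyb5r2 and Cyb5r1, lie far right in both tissues. Elovl6 is plotted both among the desaturases and elongases and in palmitate supply.

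Scd1 is also a gene of fat and of skin. In cartilage 0 of 5 tested adipocyte markers were called, with 3 at an unadjusted p under 0.05 (limma), and 3 of 10 tested epidermis markers fell. These 3 were Lor, Lce1m and Calm4, and the changes of the 10 ran from -3.42 to 0.28, with 7 negative. Lor, at 6.34 in S1Pcko and 9.76 in WT cartilage, was the brightest there in WT, so it weighs most in their summed intensity. By qPCR on fresh RNA, the paper did not find Lor lower. Of 12 adipocyte markers, 11 had a probe and 4 were detected in S1Pcko cartilage against 5 in WT cartilage, with a summed intensity of 2008 to 2097 in S1Pcko and 2989 to 3041 in WT arrays. Of the defining ones, Fabp4, Plin1 and Cidec were detected on 0 arrays, and Adipoq differed by -1.09 (adjusted p = 0.146) in cartilage. All 5 tested adipocyte markers had negative signs in both tissues, at medians of -0.47 in cartilage and -0.45 in long bone. Car3 differed by -1.18 (adjusted p = 0.142) in cartilage, and Lpl passed on p alone in long bone at -0.80 (adjusted p = 0.0315). In long bone the summed adipocyte intensity was 2513 to 4783 in S1Pcko and 4456 to 5277 in WT arrays, with the highest S1Pcko mean on array 1922. Of 14 epidermis markers, 6 were detected in S1Pcko cartilage against 8 to 10 in WT cartilage, with a summed intensity of 866 to 876 in S1Pcko and 1859 to 1941 in WT arrays. In long bone their sum was 870 to 2426 in S1Pcko and 753 to 853 in WT arrays. Of 6 sebaceous gland markers, 1 was detected on every cartilage array of either genotype, with Elovl3 among those at background. The only tested gene of this list was Pparg, which is counted among the adipocyte markers too. Chondrocyte markers summed to 103696 to 104934 in S1Pcko and 124674 to 128252 in WT cartilage, and to 71857 to 100255 in S1Pcko and 61990 to 110726 in WT long bone. In long bone 5 of 6 measured osteoclast markers and 3 of 5 measured erythroid markers fell, at medians of -1.39 and -3.06, and muscle markers had a median of -0.90 with 0 of 12 called. In cartilage 1 of 6 osteoblast markers rose, Ibsp, and 1 of 6 nerve and Schwann cell markers fell, S100b, at -1.94 (adjusted p = 0.00359). S100b was also higher in WT cartilage (7.79) than in WT long bone (4.86). Sox10 of the same list differed by 0.66 (adjusted p = 0.134) in cartilage and rose by 1.34 (adjusted p = 0.00356) in long bone. In calvaria 2 of these 6 were at least 2-fold higher on the S1Pcko array and 0 lower. The part of these cells in the levels of Scd1, Scd2, Fads1, Fads2 and Elovl6 was not tested.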

How the data were processed

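Total RNA of 12 tissue samples was amplified, labelled and hybridized by the authors to Illumina MouseWG-6 v1.1 arrays. They deposited non-normalized probe intensity values, each with a detection p-value from the negative controls, and a table of normalized intensity values used here as an alternative only. The scanner and summarizing software are not given in the sources used here. All deposited columns belong to a sample of the series (0 left over). Probes were named from the platform annotation (32794 probes with 1 symbol, 55 with several, which named no gene, and 13794 with none).

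Intensities were processed with neqc (limma 3.58.1, R 4.3.3; offset 16; negative control mean and SD inferred from the detection p-values), which ends in quantile normalization and log2 values. limma was fitted to 4 groups on 10 arrays (6 residual and 5.13 prior degrees of freedom), with Benjamini-Hochberg adjustment over 23744 probes. The thresholds of 0.05 and 2-fold follow the methods of the study, which used a 2-way ANOVA form, run here as an additive limma model. Calvaria had 1 array per genotype and no test. The number of arrays limits the precision. By its title, array 1929 of WT long bone is a second amplification of the extract of array 1923. Array 1930 of S1Pcko long bone is a second amplification too, of an extract that its title does not name. Over the tested probes it was most like array 1924 (r = 0.992, against 0.980 with array 1922). In the averaged fits array 1930 was left out. Nothing says that the other long bone arrays came from separate embryos, so p-values measure the spread between arrays, part of it technical.

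Every probe of the members was reported. A gene value is that of its brightest tested probe, and of the other lists the counts, the median and named examples are given, with examples below the thresholds picked for their role after the values were seen. The members and lists were chosen with earlier results of these data known. The fit was tested on simulated data. Alternatives covered background correction, scaling, the authors' values, the detection filter, the model, the probe summary, replicate blocks, amplification rounds and leaving out each array.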

Additional observations from a re-analysis of the deposited data

How the results depend on the processing

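Member probes called in cartilage (4), in long bone (2) and higher in WT cartilage than in WT long bone (1), with the tissue difference of the genotype change (0), kept their numbers under most alternatives. In cartilage the count was 0 with the first amplifications alone and 0 with amplifications averaged, both of which leave fewer arrays and a single cartilage value per genotype, assumed to vary like the long bone samples. In long bone it was 1 without background correction, 1 with an offset of 50, and 0 in the same pair of smaller sets. Between the WT tissues it was 0 without background correction, with the first amplifications alone and with averaging. Leaving out 1 array at a time gave 3 to 4 in cartilage, 2 to 2 in long bone, 0 to 1 for the tissue difference, 0 to 1 between the WT tissues, and 4 to 5 for genes with their highest WT mean in cartilage (4 with all arrays). A cartilage group left with 1 array was assumed to vary like the other groups. Averaging, the fit without normalization between arrays and the block by amplification round were chosen after seeing the data. Over all probes 572 were called in cartilage and 244 in long bone, against 258 and 113 without background correction, 340 and 145 with an offset of 50, 14 and 21 with the first amplifications alone, and 17 and 24 with averaging. Leaving out 1 array moved these to between 277 and 634 in cartilage and between 158 and 572 in long bone, the last without array 1922. In that fit the S1Pcko long bone group kept arrays 1924 and 1930, which may share an extract.

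The replicate numbers of the labels mark amplifications within a tissue, so no pairing of embryos was taken from them. The deviations of same-numbered arrays from their group means correlated at 0.466 in cartilage and 0.023 in long bone. With 2 arrays in a group the deviations mirror each other, so the cartilage value cannot tell a pairing of embryos from the amplification round. The long bone value rests on 1 pair. With these numbers as a replicate block the counts were 4 in cartilage, 2 in long bone and 0 for the tissue difference. With the amplification round as the block they were 4, 2 and 0, and 1 between the WT tissues, for which the nested numbers allow no value. Fits of each tissue alone give no value for either comparison between tissues.

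The values whose sign turned passed no threshold, and the cause was not tested. With the first amplifications alone, the sign turned for Elovl1 probe 4760138 in long bone (0.064), Elovl5 in long bone (0.18), Elovl1 probe 2450019 for the tissue difference (0.048) and Elovl1 probe 5340685 between the WT tissues (0.037). With averaging, the sign turned for Elovl5 in long bone (0.11). With median scaling, the sign turned for Fads1 probe 5270537 for the tissue difference (-0.090), Fads1 probe 5270537 between the WT tissues (0.093) and Elovl5 between the WT tissues (0.038). With no normalization between arrays, the sign turned for Fads1 probe 5270537 for the tissue difference (-0.10), Fads1 probe 5270537 between the WT tissues (0.065) and Elovl5 between the WT tissues (0.0098). With the additive model, the sign turned for Elovl1 probe 4760138 in cartilage (-0.079). With the mean of the probes of a gene, the sign turned for Elovl1 probe 5340685 for the tissue difference (0.00089). Without 1 array at a time, the values in cartilage ran from -0.15 to 0.29 for Elovl1 probe 2450019, -0.17 to 0.21 for Elovl1 probe 4760138, -0.0012 to 0.29 for Elovl1 probe 5340685 and -0.18 to 0.11 for Elovl5. Without 1 array at a time, the values in long bone ran from -0.024 to 0.21 for Elovl1 probe 2450019, -0.16 to 0.10 for Elovl1 probe 4760138 and -0.15 to 0.14 for Elovl5. Without 1 array at a time, the values for the tissue difference ran from -0.10 to 0.20 for Fads1 probe 5270537, -0.25 to 0.19 for Elovl1 probe 2450019, -0.15 to 0.22 for Elovl1 probe 4760138, -0.22 to 0.14 for Elovl1 probe 5340685 and -0.18 to 0.11 for Elovl5. Without 1 array at a time, the values between the WT tissues ran from -0.19 to 0.14 for Elovl1 probe 5340685 and -0.26 to 0.028 for Elovl5.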
